A study of Mus musculus with 6 samples.

Results

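This account covers 44 genes of protein folding in the endoplasmic reticulum (ER), the unfolded protein response and the integrated stress response. They were chosen by name, 1 probe set standing for each gene (the brightest by its mean over the 6 arrays), and all 44 were found, with no filter on low values, among the 18029 genes measured, with Ero1l and Ero1lb under the newer symbols Ero1a and Ero1b. Liver RNA came from 3 control mice with floxed alleles of RECS1 (genotype RECS1-flox) and from 3 mice lacking RECS1 in hepatocytes (RECS1-HKO, here HKO). RECS1 is the older name of Tmbim1, which encodes a membrane protein of the family that also holds the ER-resident cell death suppressor Tmbim6. All 6 mice were C57BL/6, received a high-fat diet for 8 weeks from the age of 8 weeks and were 16 weeks old when the liver was taken. Each RNA was hybridised to 1 Affymetrix array, and the labels call the 3 samples of a genotype biological samples. The sources used here do not give the line that deleted the gene in hepatocytes or the sex of the mice, and both groups received the diet.

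Secretory cells such as hepatocytes fold large amounts of protein in the ER, and membrane sensors report when folding falls behind. ATF6 (Atf6) is cut to release a transcription factor, IRE1 (Ern1) splices the mRNA of the factor XBP1 (Xbp1), and both factors raise chaperones, disulfide isomerases and the machinery of ER-associated degradation (ERAD). PERK (Eif2ak3) phosphorylates eIF2alpha, which lowers translation in general and raises that of ATF4 (Atf4). Kinases that sense other stresses, such as lack of amino acids, act on the same site, so the branch through ATF4 is called the integrated stress response. In liver these pathways respond to feeding and lipid load.

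The branches through ATF6 and XBP1 and through ATF4 are known to read different promoter letters, which are shown because the results compare chaperones with ATF4 targets. RefSeq promoter windows (GRCm38.p6, from 250 bases before to 50 bases after the start site) were held for 39 of the 44 members. They were searched on both strands for the ER stress response element (ERSE), which is CCAAT followed after 9 bases of any kind by CCACG. The ERSE was found in 10 of the 21 folding members with a window (47.6%), in 0 of the 14 ATF4-target members and in 0.137% of all 27025 genes with a window. In the following elements the capitals mark the CCAAT and CCACG boxes, and each is read from CCAAT to CCACG on the strand named.

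Calr, chr8:84847075-84847093, plus strand: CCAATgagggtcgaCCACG
Canx, chr11:50325800-50325818, minus strand: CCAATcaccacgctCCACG
Creld2, chr15:88819520-88819538, minus strand: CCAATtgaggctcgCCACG
Derl3, chr10:75893242-75893260, minus strand: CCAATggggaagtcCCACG
Dnajc3, chr14:118937827-118937845, plus strand: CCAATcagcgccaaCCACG
Ero1lb, chr13:12565682-12565700, minus strand: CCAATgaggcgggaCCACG
Hsp90b1, chr10:86705638-86705656, minus strand: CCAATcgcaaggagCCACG
Hsp90b1, chr10:86705533-86705551, plus strand: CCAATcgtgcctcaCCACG
Hspa5, chr2:34772025-34772043, plus strand: CCAATcggaggcctCCACG
Pdia6, chr12:17266491-17266509, plus strand: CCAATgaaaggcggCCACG
Syvn1, chr19:6046532-6046550, plus strand: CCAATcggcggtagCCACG

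The related ERSE-II (ATTGG followed after 1 base by CCACG) was present in 2 folding members, Herpud1 and Dnajb11, and in 0.0444% of all genes with a window. In Dnajb11 it lay 8 to 18 bases past the start site. The C/EBP-ATF element searched, TGATGNAA, was present in 4 of the 14 ATF4-target members (Asns, Chac1, Nupr1 and Trib3), in 1 of the 21 folding members (Herpud1) and in 4.51% of all genes. The XBP1 element TGACGTGG was in 0 of the 39 windows and in 0.714% of all genes. No match in a member overlapped a match to another motif. A match is a description of the letters and not evidence of binding.

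**Figure D1:**
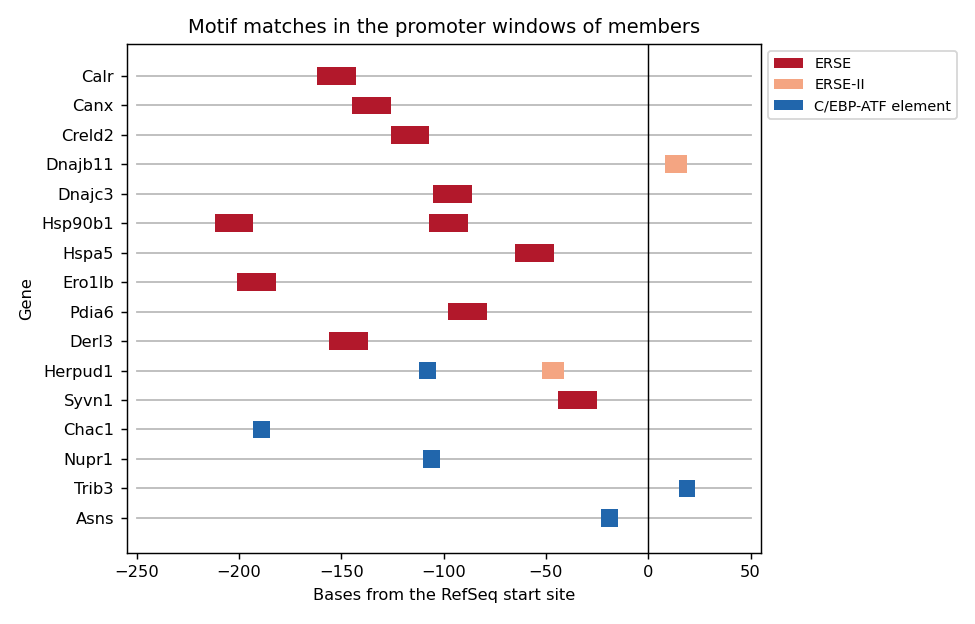
Positions of motif matches, in bases from the RefSeq start site, in the promoter windows of the 16 members with a match; each grey line is 1 window from 250 bases before to 50 bases after the start. ERSE and ERSE-II matches lie in folding members, and C/EBP-ATF matches lie in 4 ATF4 targets and Herpud1.

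The 150 bases before the start site are given for 4 members: Hspa5, Creld2, Dnajb9 and Asns. Hspa5 is the classical ERSE gene, Creld2 had the lowest fold change among the members with an ERSE, Dnajb9 was the member that passed the test, and Asns is the classical ATF4 target of amino acid lack. They lie at chr2:34771940-34772089 on the plus strand, chr15:88819496-88819645 on the plus strand, chr12:44210069-44210218 on the minus strand and chr6:7693210-7693359 on the minus strand. Capitals mark the ERSE in Hspa5 and Creld2 and the C/EBP-ATF element in Asns, and Dnajb9 had no match. The letters run in the direction of each gene, so the ERSE of Creld2, which is on the opposite strand, appears as its reverse complement.

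Hspa5: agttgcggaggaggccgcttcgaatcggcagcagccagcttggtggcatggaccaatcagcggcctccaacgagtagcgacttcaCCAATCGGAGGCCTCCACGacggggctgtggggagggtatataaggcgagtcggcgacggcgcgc
Creld2: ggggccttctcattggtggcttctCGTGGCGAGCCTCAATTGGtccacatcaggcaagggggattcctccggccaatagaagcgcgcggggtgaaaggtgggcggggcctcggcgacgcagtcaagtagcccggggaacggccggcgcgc
Dnajb9: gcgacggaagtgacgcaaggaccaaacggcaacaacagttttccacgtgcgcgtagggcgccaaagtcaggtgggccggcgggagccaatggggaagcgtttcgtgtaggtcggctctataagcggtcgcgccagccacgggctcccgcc
Asns: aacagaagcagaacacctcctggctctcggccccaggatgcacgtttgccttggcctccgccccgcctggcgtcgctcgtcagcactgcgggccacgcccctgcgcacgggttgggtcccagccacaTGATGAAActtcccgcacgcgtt

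Dnajb9, a co-chaperone of the ER, rose 1.46-fold in HKO liver, with an adjusted p of 0.0374 (limma, Benjamini-Hochberg over all 18029 genes), and it was the only 1 of the 44 members past the threshold of 0.05. No member fell. Over all genes, 0.56% passed upward and 0.449% downward, and 1 member is too few to set the list apart from that background. Of the 24 folding members (chaperones, disulfide formation, ERAD and translocation), 17 had log2 fold changes below 0, with a median of -0.17, though none of them passed, and 51.2% of all genes lay below 0 with a median of -0.0041. Of the 15 ATF4-target members, 5 lay below 0, with a median of 0.12.

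At an unadjusted p under 0.05 there were 10 members lower and 4 higher, against 6.96% and 6.03% of all genes. In 10 members the HKO values lay without overlap below the controls, and in 3 members above them, against 10.1% and 8.58% of all genes. Of those 10 members, 9 were folding members. Without control 3 there were 14 such folding members, and 15.6% of all genes then had HKO values below both remaining controls. The 9 folding members at an unadjusted p under 0.05 became 4 without control 2 and 12 without control 3, when 6.01% and 6.07% of all genes met the same rule. Only 2 members had a mean below that of the median gene (4.69), and lower values were commoner among bright genes. With the genes below the median gene left out, 9 folding members were again lower without overlap, against 14.4% of the genes kept. At an unadjusted p under 0.05, 9 folding members were again lower, against 10.8% of the genes kept. With 3 arrays against 3 the smallest p of an exact permutation test is 0.1, and each gene was therefore tested within the model of all genes.

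**Figure D2:**
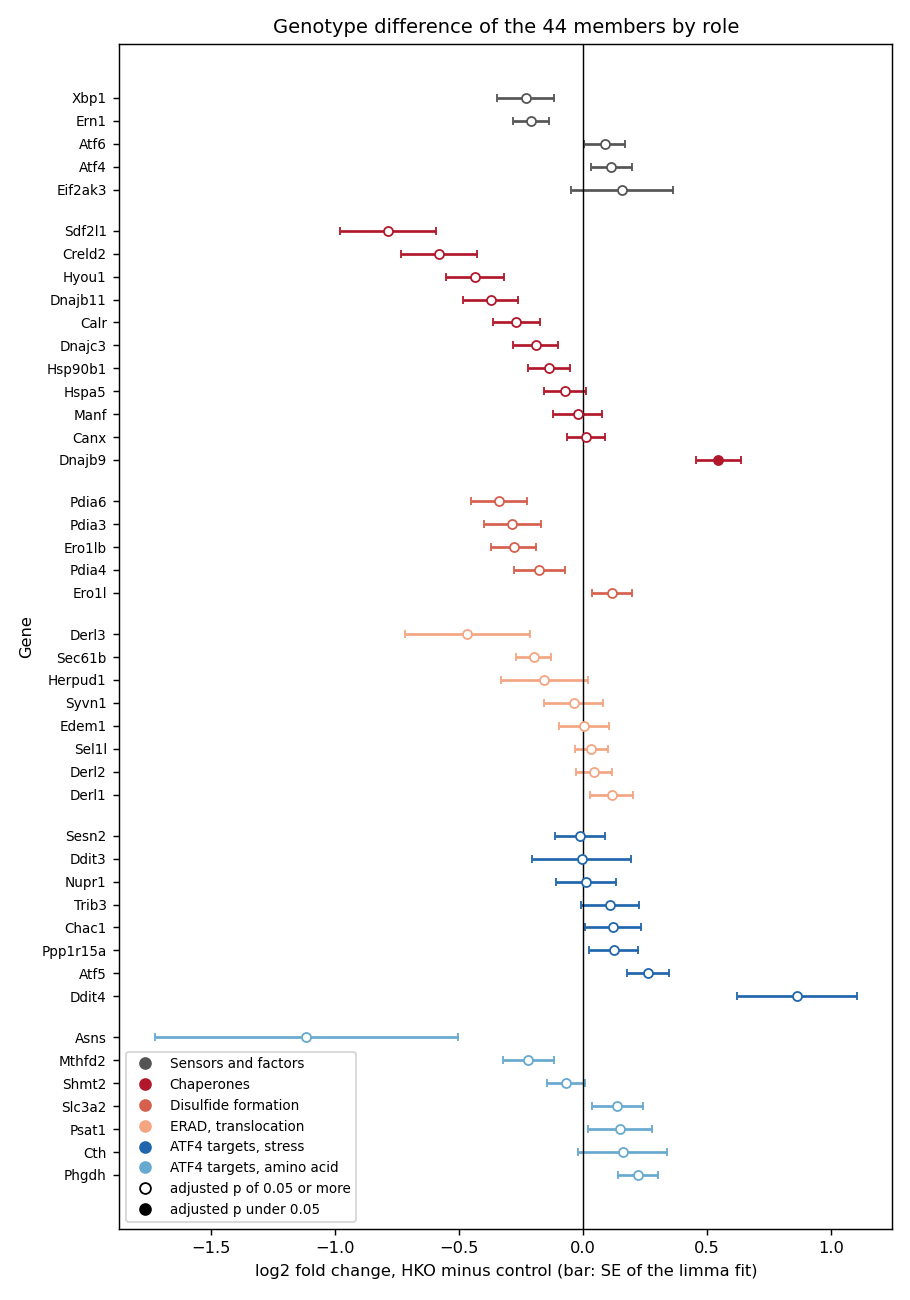
Log2 fold change (HKO minus control, horizontal axis) of each of the 44 members, grouped by role, with the standard error of the limma fit as bars; filled points have an adjusted p under 0.05. Dnajb9 at 0.55 is the only filled point, and 9 of the 11 chaperones lie below 0.

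Genotype and tissue were checked on the same arrays. The array medians lay between 3.92 and 3.95 (log2), correlations across genes were 0.9948 to 0.9964 within and 0.9910 to 0.9940 between genotypes; precision is limited by the number of arrays. The targeted gene Tmbim1 fell by 0.52 ± 0.08 (SE) on the log2 scale (adjusted p = 0.026), from 7.62, 7.58 and 7.74 in controls 1 to 3 to 7.19, 7.14 and 7.06 in HKO 1 to 3, and its adjusted p lay between 0.065 and 0.0967 without any 1 array. Whether its only probe set lies in the deleted stretch is not stated in these sources. Hepatocyte markers were high in both genotypes, with Alb at 13.57 and 13.63 and Ttr at 13.25 and 13.33 (mean log2 value, control and HKO). In whole liver, fewer cells of a type and less RNA per cell cannot be told apart.

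Among the 5 sensors and transcription factors none passed. Ern1, the kinase and RNase IRE1, measured 7.86, 7.87 and 7.90 in controls 1 to 3 and 7.76, 7.63 and 7.61 in HKO 1 to 3. The groups did not overlap, and the log2 fold change was -0.21 ± 0.07 (adjusted p = 0.279). The next brightest of its 5 probe sets, with a mean of 4.91, stood at -0.30. The median over the 5 was 0.06, but the dimmer ones had means of 3.78, 2.07 and 2.00, below the median gene (4.69).

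Xbp1, the factor that IRE1 splices, measured 10.07, 10.16 and 10.41 in controls and 9.83, 10.14 and 9.98 in HKO livers. HKO 2 lay above control 1, and the log2 fold change of -0.23 ± 0.12 did not pass (adjusted p = 0.455; -0.13 without control 3 and -0.15 without HKO 1). The other 3 probe sets of Xbp1 also lay below 0, at -0.36, -0.26 and -0.18. The first of these, with a mean of 10.004 against 10.1 for the one used, had a standard error of 0.09. Its adjusted p was 0.159 in the limma fit of each probe set on its own. No source here states which of the 4 read the spliced form.

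Atf6 measured 7.63, 7.49 and 7.44 in controls and 7.70, 7.56 and 7.57 in HKO livers, a difference of 0.09 ± 0.08 on the log2 scale (adjusted p = 0.714). Atf4 measured 8.83, 8.65 and 8.63 in controls and 8.84, 8.76 and 8.84 in HKO livers (0.11 ± 0.08, adjusted p = 0.616). Eif2ak3, the kinase PERK, measured 6.39, 5.96 and 5.76 in controls and 5.87, 6.13 and 6.59 in HKO livers. All 3 genes overlapped between the groups, with Eif2ak3 spread over 0.32 (SD) in controls and 0.36 in HKO livers around a difference of 0.16 ± 0.21 (adjusted p = 0.8). By the median of probe sets Eif2ak3 stood at -0.18 and Atf4 at 0.22. The dimmer probe sets of Eif2ak3 had means of 2.35 and 2.30, below the median gene (4.69). ATF6 and PERK are governed mainly by cleavage and phosphorylation, and Atf4 by translation, none of which an mRNA array measures.

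Chaperones held both ends of the folding genes. Dnajb9, the co-chaperone ERdj4 that acts on the chaperone BiP and is a known XBP1 target, measured 8.56, 8.57 and 8.57 in controls 1 to 3 and 8.94, 9.23 and 9.16 in HKO 1 to 3. The controls lay within 0.01 (SD) and all HKO values lay above them, a log2 fold change of 0.55 ± 0.09. Dnajb9 has 1 probe set. Its adjusted p was 0.032 without HKO 1 and 0.127 without control 1, 0.135 without control 2, 0.118 without control 3, 0.0927 without HKO 2 and 0.12 without HKO 3. The log2 fold changes of these fits lay between 0.49 and 0.63.

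Sdf2l1, an ER-lumenal partner of the DnaJ co-chaperones, had the lowest log2 fold change of the folding members. It measured 7.93, 8.03 and 7.25 in controls and 6.92, 7.13 and 6.80 in HKO livers, 0.58 times the control level. Control 3 lay closer to the HKO livers than to the other controls, and the log2 fold change of -0.79 ± 0.19 did not pass (adjusted p = 0.142). Creld2, a secreted ER stress protein, had the same arrangement, with 8.02, 7.95 and 7.43 in controls and 7.16, 7.36 and 7.14 in HKO livers (-0.58 ± 0.15, adjusted p = 0.168). Without control 3 both passed, Sdf2l1 at -1.03 (adjusted p = 0.0208) and Creld2 at -0.77 (adjusted p = 0.0342), while without any other 1 array their adjusted p lay at 0.178 or above.

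Hyou1, the large ER chaperone GRP170, measured 8.73, 8.88 and 8.48 in controls and 8.31, 8.36 and 8.11 in HKO livers (-0.44 ± 0.12, adjusted p = 0.176). By the median of its 3 probe sets it stood at -0.22. Dnajb11, the BiP co-chaperone ERdj3, measured 9.07, 8.97 and 8.68 in controls and 8.57, 8.60 and 8.43 in HKO livers (-0.37 ± 0.11, adjusted p = 0.216). Calr, the lectin chaperone calreticulin, measured 11.23, 11.23 and 11.14 in controls and 11.02, 11.03 and 10.74 in HKO livers (-0.27 ± 0.10, adjusted p = 0.287; -0.17 without HKO 3). In these 3 genes no HKO value reached the lowest control, and all 3 probe sets of Calr lay below 0.

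Hspa5, which encodes BiP, the main ER chaperone and the usual marker of the unfolded protein response, did not share that separation. It measured 11.90, 11.98 and 11.76 in controls and 11.76, 11.90 and 11.76 in HKO livers, with HKO 2 inside the control range and HKO 1 and HKO 3 level with control 3 (-0.07 ± 0.09, adjusted p = 0.774). Its other 2 probe sets stood at 0.10 and 0.06, so the sign depends on the probe set. The remaining chaperones also overlapped between the groups, with Dnajc3 (p58IPK) at -0.19, Hsp90b1 (GRP94) at -0.14, the secreted factor Manf at -0.02 and the lectin chaperone Canx at 0.01 (log2 fold changes, adjusted p from 0.433 to 0.969). The dimmer probe sets of Canx stood at -0.10 and -0.16, so its sign too depends on the probe set. The dimmer probe set of Hsp90b1, with a mean of 10.455, stood at -0.03.

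**Figure D3:**
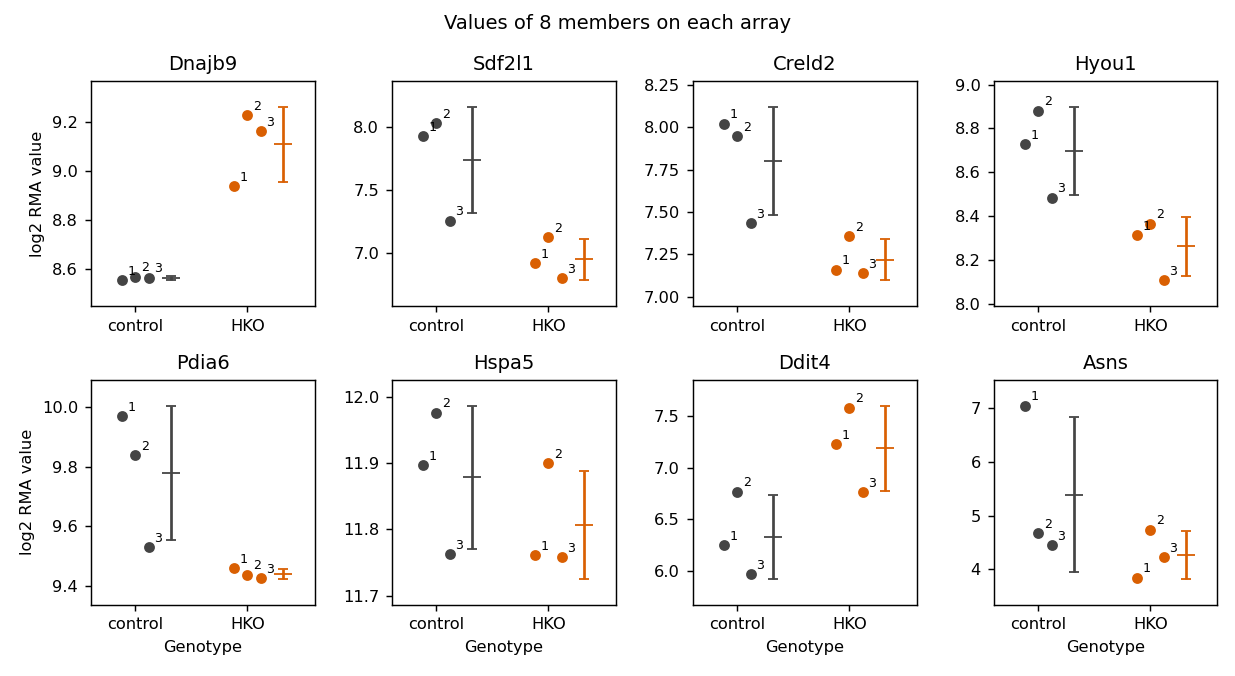
Log2 RMA values of 8 members in each liver (points, numbered by sample, 3 controls and 3 HKO), with the mean and SD of each genotype beside them; each panel has its own axis range. Dnajb9 is higher in all HKO livers, Sdf2l1, Creld2, Hyou1 and Pdia6 are lower with control 3 nearest to the HKO values, and Hspa5 and Asns overlap.

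Of the 5 genes of disulfide formation, 4 lay below 0 and none passed. Pdia6, a protein disulfide isomerase, measured 9.97, 9.84 and 9.53 in controls and 9.46, 9.44 and 9.43 in HKO livers (-0.34 ± 0.11, adjusted p = 0.259). Pdia3, the isomerase ERp57 that works with calreticulin and calnexin, measured 10.50, 10.23 and 10.05 in controls and 9.996, 9.999 and 9.93 in HKO livers (-0.29 ± 0.11, adjusted p = 0.346; -0.17 without control 1). Ero1lb, an oxidase that recharges the isomerases, measured 8.46, 8.61 and 8.32 in controls and 8.25, 8.12 and 8.18 in HKO livers (-0.28 ± 0.09, adjusted p = 0.252). In all 3 the HKO values were tightly grouped below the controls, with SDs of 0.02, 0.04 and 0.06 against 0.23, 0.23 and 0.15. Pdia4 stood at -0.18 (adjusted p = 0.523) and the other oxidase, Ero1l, at 0.12 (adjusted p = 0.592).

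The 8 ERAD and translocation genes were split evenly around 0, with a median of -0.02, and none passed. Sec61b, a subunit of the channel through which proteins enter the ER, measured 9.64, 9.74 and 9.63 in controls and 9.45, 9.49 and 9.47 in HKO livers. The groups did not overlap, with a log2 fold change of -0.20 ± 0.07 (adjusted p = 0.284). Derl3, a derlin of the retrotranslocation complex, measured 6.53, 5.66 and 5.40 in controls and 5.52, 5.39 and 5.27 in HKO livers. Its value of -0.47 ± 0.25 (adjusted p = 0.494) was -0.13 without control 1, the liver with the high value. The ubiquitin ligase Syvn1, its partner Sel1l, the mannosidase-like Edem1, Derl1 and Derl2 lay between -0.04 and 0.12, and Herpud1, which recruits substrates to the ligase, stood at -0.16 with SDs of 0.23 in controls and 0.33 in HKO livers. The dimmer probe set of Herpud1, with a mean of 9.61, stood at -0.01. The sign of Derl1 depends on the probe set, as its next brightest, with a mean of 7.89, stood at -0.14 and the dimmer ones at 0.17 and 0.06.

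The 8 stress-related ATF4 targets had a median of 0.11, with 6 above 0 and none past the threshold. Ddit4, the mTORC1 inhibitor REDD1, which glucocorticoids and hypoxia also induce, measured 6.24, 6.76 and 5.97 in controls and 7.23, 7.58 and 6.76 in HKO livers. HKO 3 lay marginally below control 2, and the log2 fold change of 0.86 ± 0.24 did not pass (adjusted p = 0.191). Atf5, a transcription factor that is itself translated under eIF2alpha phosphorylation, measured 9.81, 9.84 and 9.85 in controls and 10.23, 10.08 and 9.98 in HKO livers. Its groups did not overlap (0.26 ± 0.08, adjusted p = 0.244).

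Ddit3, the pro-apoptotic factor CHOP, measured 6.36, 5.90 and 5.52 in controls and 6.06, 6.02 and 5.68 in HKO livers, a difference of -0.01 ± 0.20 (adjusted p = 0.995). The spread between control livers was far wider than that difference. Ppp1r15a (GADD34, the phosphatase subunit that reverses eIF2alpha phosphorylation) stood at 0.12, the glutathione-degrading Chac1 at 0.12, the pseudokinase Trib3 at 0.11, Nupr1 at 0.01 and Sesn2 at -0.01, with adjusted p from 0.655 to 0.982.

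Of the 7 ATF4 targets of amino acid and one-carbon metabolism, 4 lay above 0 and none passed. Asns, asparagine synthetase, measured 7.04, 4.67 and 4.45 in controls and 3.85, 4.74 and 4.23 in HKO livers. Control 1 stood apart from the other 5 livers, the log2 fold change was -1.12 ± 0.61 (adjusted p = 0.499), and without control 1 it was -0.29. The dimmer probe set of Asns stood at -1.48. Phgdh, the first enzyme of serine synthesis, measured 6.50, 6.42 and 6.31 in controls and 6.57, 6.71 and 6.61 in HKO livers (0.22 ± 0.08, adjusted p = 0.297). Its groups did not overlap, but the dimmer 3 probe sets gave -0.08, -0.12 and 0.09, and the median over probe sets was -0.10. The next enzyme of that pathway, Psat1, stood at 0.15, the mitochondrial folate enzymes Shmt2 and Mthfd2 at -0.07 and -0.22, the amino acid transporter chain Slc3a2 at 0.14 and the cysteine-forming Cth at 0.16. Psat1 and Mthfd2 had means below the median gene (4.69). The next brightest probe set of Shmt2, with a mean of 7.46, stood at 0.06 and the dimmer ones at -0.04 and -0.21.

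The division between folding members and ATF4 targets was then followed on each array, as the median over genes of the value minus the control mean. Folding members stood at 0.03, 0.06 and -0.13 in controls 1 to 3 and at -0.17, -0.13 and -0.21 in HKO 1 to 3, so control 3 and HKO 2 were level. ATF4 targets stood at 0.09, -0.00064 and -0.08 in controls and at 0.05, 0.10 and 0.02 in HKO livers. The difference between the medians, folding minus ATF4 targets, was -0.05, 0.06 and -0.05 in controls and -0.22, -0.23 and -0.23 in HKO livers. These values did not overlap, and as the members were chosen with results known they carry no test. Over the genotype log2 fold changes the same difference was -0.29, and between -0.34 and -0.23 without any 1 array.

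**Figure D4:**
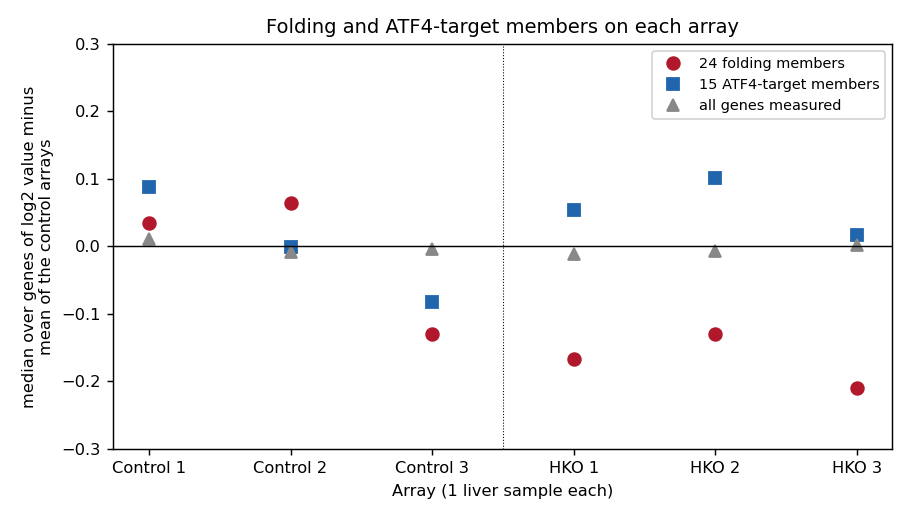
Median over the 24 folding members, the 15 ATF4-target members and all genes of the log2 value minus the mean of the control arrays (vertical axis), for each of the 6 livers. Folding members are at -0.13 to -0.21 in HKO livers and at -0.13 in control 3, and all genes stay near 0.

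Control livers differed among themselves in the folding genes. Control 3 was the lowest control in 20 of the 24 folding members and in 34.5% of all genes. In 17 of the 24 it lay nearer to the HKO mean than to the mean of the other controls. The share of all genes that meet this last rule was not computed, so the 17 cannot be set against a background. In 9 of the 24 all HKO values still lay below control 3, as they did in 27.7% of all genes. The sources used here do not state the feeding state or the hour at which each liver was taken.

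**Figure D5:**
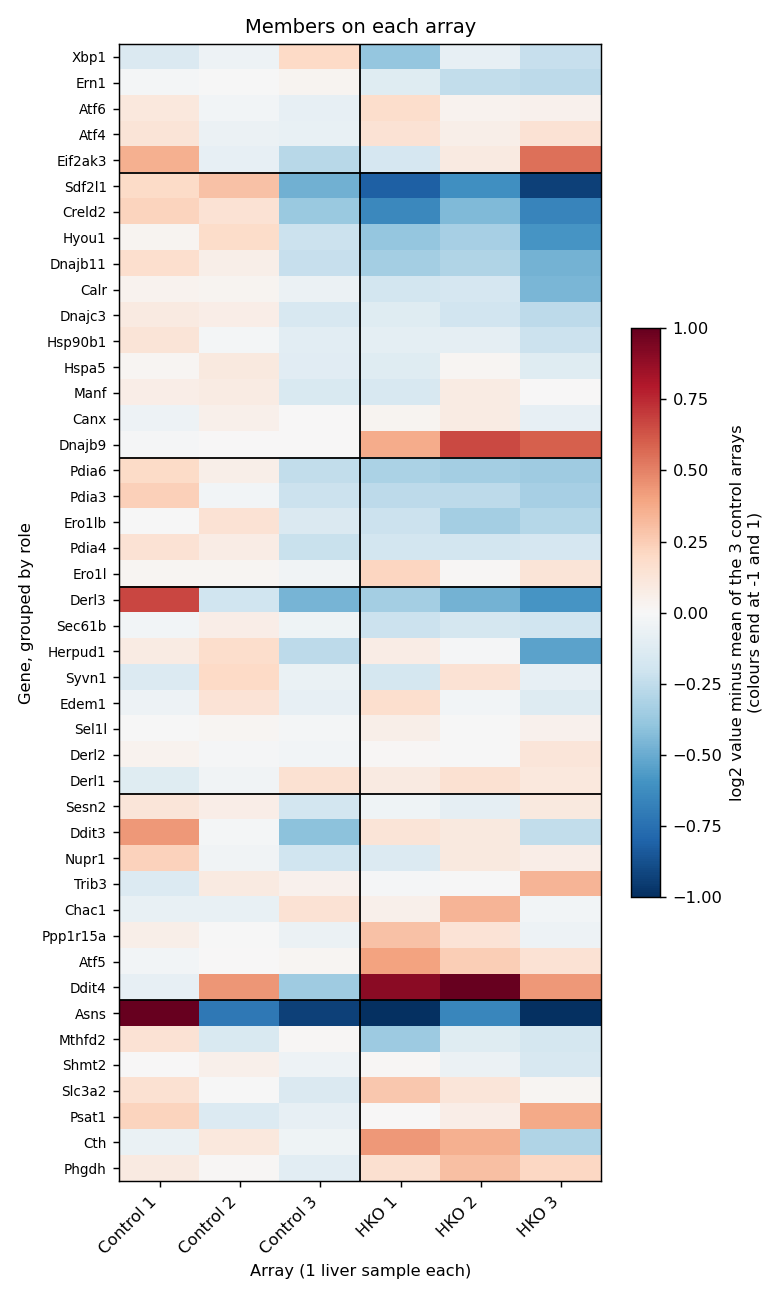
Log2 value minus the mean of the 3 control arrays (colour, ending at -1 and 1) for the 44 members (rows, by role) on each of the 6 arrays (columns). Most chaperone and disulfide rows are blue in the HKO livers and paler blue in control 3, Dnajb9 and Ddit4 are red in the HKO livers, and Asns is red in control 1.

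Set beside the promoter letters, the 10 folding members with an ERSE had a median log2 fold change of -0.23, with 9 below 0 and a range from -0.58 (Creld2) to 0.01 (Canx). The 11 folding members with a window but no ERSE had a median of -0.16, with 6 below 0. That group included Dnajb11 and Herpud1, which have an ERSE-II. The 12 folding members with either element had a median of -0.23, with 11 below 0, and the 9 with neither had a median of 0.0043, with 4 below 0. Those 9 held both Sdf2l1 at -0.79 and Dnajb9 at 0.55. Of the 27 other genes with an ERSE, 10 were measured, with a median of -0.05 and 6 below 0. Of the 37 other genes with either element, 17 were measured, with a median of -0.0145 and 9 below 0. Among all 14324 measured genes with a window, 7356 lay below 0, with a median of -0.0043. The folding members Hyou1 (-0.44), Manf (-0.02) and Derl1 (0.12) had no window and are in none of these groups. The fold changes of members with and without either element overlapped.

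The other genes of these pathways, from lists chosen with the members, numbered 93 measured, and 7 listed genes were not analysed here. Of 19 further ER folding genes, 13 lay below 0 (median -0.12), 1 fell and none rose. Pdia5, a disulfide isomerase, measured 8.32, 8.32 and 8.50 in controls and 7.82, 7.96 and 7.84 in HKO livers, with no overlap between the groups. It fell by 0.50 ± 0.08 on the log2 scale (adjusted p = 0.0384), though its adjusted p lay between 0.0605 and 0.152 without any 1 array and was 0.0947 with the replicate number as a block. The prolyl isomerase Fkbp11 stood at -0.45 (adjusted p = 0.191), the cyclophilin Ppib at -0.24 (0.262) and the retrieval receptor Kdelr2 at -0.21 (0.319), again with no overlap between the groups. The median over the probe sets of Fkbp11 was -0.22.

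Of 26 further ERAD, translocation and glycosylation genes, 21 lay below 0, with a median of -0.10, and none passed. That count was 16 without control 2 and 24 without control 3. The oligosaccharyltransferase subunits Rpn1 and Ddost stood at -0.36 (adjusted p = 0.115) and -0.23 (0.256), the signal peptidase subunit Spcs2 at -0.24 (0.204) and Edem2 at -0.33 (0.204). With limma's trend and robust options Rpn1 passed (adjusted p = 0.0459), and by the median of probe sets Spcs2 stood at -0.13 and Edem2 at -0.17. Among 12 further sensors and ER factors none passed, with Atf6b at -0.35 (0.197), Crebrf at -0.28 (0.271), Ern2 at -0.25 (0.458) and the liver factor Creb3l3 at -0.16 (0.464). Over the median of probe sets Crebrf stood at 0.02. Ern2 had means of 2.46 in controls and 2.22 in HKO livers, below the median gene (4.69).

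The further integrated stress genes were mixed, with 12 of 23 above 0 and a median of 0.02. Vldlr, a lipoprotein receptor that ATF4 and PPARg both regulate, rose by 0.94 ± 0.09 (adjusted p = 0.00256) and passed without each of the 6 arrays. It measured 4.09, 3.93 and 3.82 in controls and 4.83, 4.93 and 4.91 in HKO livers. The transaminase Gpt2 stood at 0.24 (adjusted p = 0.192), the amino acid transporter Slc38a2 at 0.65 (0.247) and Stc2 at 0.18 (0.337). By the median of its probe sets Slc38a2 passed, at 0.55 (adjusted p = 0.0132), while Stc2 stood at -0.0051 (adjusted p = 0.991). The means of Vldlr and Stc2 over all arrays lay below the median gene (4.69). Of 13 cytosolic tRNA synthetases, a class that ATF4 induces, 10 lay below 0 (median -0.09) and none passed, with Iars at -0.18 (0.323), Nars at -0.18 (0.402), Gars at -0.13 (0.478) and Kars at -0.15 (0.511). By the median of probe sets Iars and Nars both stood at -0.11.

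Markers of other cells were measured beside these genes, as summed levels (2 to the power of the log2 value, added over the list). The 4 neutrophil markers summed to 198 in control 1 and to between 62.5 and 85.6 in the other 5 livers, and control 1 was also the liver with high Asns and Derl3. The 7 macrophage markers summed to 2689 in control 1 and to between 1888 and 2265 in the others. Their log2 fold changes went both ways, with a median of -0.03 and 3 of the 7 above 0. Cd163 stood at -0.48 without overlap (adjusted p = 0.05005), Clec4f at -0.18, Csf1r at -0.04 and Vsig4 at -0.03. Marco stood at 1.03, Adgre1 at 0.36 and Cd68 at 0.12. The part of neutrophils and macrophages in the values of Asns and Derl3 was not tested. Of 6 pancreatic acinar markers, a secretory tissue rich in ER chaperones, only Cela1 lay above the median gene, and their sum ranged from 457 to 609 in controls and from 306 to 653 in HKO livers. Of 6 plasma and B cell markers, the sum was 416 to 454 in controls and 539 to 579 in HKO livers. Most of that sum came from Sdc1, which hepatocytes also express and which rose by 0.47 (adjusted p = 0.0351). Sdc1 had mean log2 values of 8.37 in controls and 8.85 in HKO livers, against 4.67 and 5.22 for Igj, the next brightest. The 5 markers other than Sdc1 did not pass, with Igj at 0.55, Mzb1 at -0.31, Ms4a1 at -0.18, Cd79a at -0.04 and Cd79b at -0.01. The 4 cholangiocyte markers summed to 53.6 to 59.0 in controls and 42.7 to 48.3 in HKO livers, all below the median gene. Their part in the lower folding genes was not tested.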

How the data were processed

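Liver RNA of 6 mice was measured on 6 arrays, 3 for each genotype. The authors deposited log2 values of 38208 probe sets, made with RMA according to their notes (per the submitters' processing notes); limma is named there too. The sources used here give no versions, settings or genome build. RMA gives all arrays nearly 1 distribution, so a shift of all transcripts would not be seen, and it shrinks the fold changes of dim probe sets. Gene names came from the platform annotation: 34325 have 1 gene symbol, 62 have several, 3808 are unnamed here, and 13 are controls. For each of 18029 genes the brightest probe set, by its mean across the 6 arrays, was used. Among the members 31 have over 1 probe set. Of 33 other member probe sets above the median gene, 27 had the sign of the one used.

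The test was limma 3.58.1 under R 4.3.3 (lmFit and eBayes with genotype alone, two-sided, HKO minus control), p-values were adjusted by Benjamini-Hochberg across all genes, and the threshold was 0.05. Errors beside fold changes are standard errors of that fit, and the steps were tested on simulated data. The members, roles and lists were chosen with earlier results of these data known. Members are given with values on each array where their unadjusted p was under 0.05, where they are a sensor, Atf4, Xbp1, Hspa5 or Ddit3, or where they were among the 2 largest differences of their role. Of the further lists, the 4 genes with the lowest p are named. Motifs were searched in RefSeq promoters of GRCm38.p6. Protein sequences were not used here.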

Additional observations from a re-analysis of the deposited data

How the results depend on the processing

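The replicate numbers are not stated to pair animals, and deviations of same-numbered livers correlated at -0.09, 0.07 and 0.11, so the replicate block was an alternative only. With the replicate block 125 genes passed in place of 182, and 1 member, Ddit4 at 0.86 (adjusted p = 0.015), while Dnajb9 (adjusted p = 0.071), Pdia5 (0.0947) and Tmbim1 (0.0828) did not pass. Only control 3 correlated best with its own number. At an adjusted p under 0.1, 344 genes passed and Dnajb9 was still the only member. Without any 1 array between 78 and 161 genes and between 0 and 2 members passed, folding members below 0 numbered 15 to 18, those lower without overlap 9 to 14 (14.2% to 15.8% of all genes) and those lower at an unadjusted p under 0.05 numbered 4 to 12 (5.35% to 6.36%). The difference between the medians of folding members and ATF4 targets was -0.34 to -0.23 without any 1 array, -0.23 by the median of each gene's probe sets and -0.15 over each probe set on its own. By the median of probe sets, 5 folding members and 9.43% of all genes were lower without overlap. Quantile normalization, median centring, leaving out dim genes, choosing probe sets by the control mean, array weights and the trend and robust options kept these counts within 1.5 times, with Dnajb9 the member past the threshold under each. No named gene past the threshold changed sign under any alternative run. Of the named genes that did not pass, Crebrf (0.0216), Ddit3 (0.0157), Eif2ak3 (-0.18), Ern1 (0.0618), Hspa5 (0.10), Phgdh (-0.10) and Stc2 (-0.0051) changed sign by the median of probe sets. Ddit3 also did so with quantile normalization (0.0071) and array weights (0.0070). For Ern1, Eif2ak3 and Phgdh the probe sets that set the median over probe sets lay below the median gene (4.69). Without any 1 array Ddit3 lay between -0.210 and 0.209, above 0 without control 1 or HKO 3, and Eif2ak3 lay between -0.0392 and 0.335, below 0 without HKO 3. The cause was not tested. The counts of folding members were added after the data were seen.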
